A study of Mus musculus with 45 samples.

Results

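Livers of 5 mice given 0.03 µg/kg TCDD, a dose near the bottom of the range studied, were compared with livers of 5 mice given sesame oil vehicle. These are 10 of the 45 mice of the study, and they were taken by the dose in their labels. All were female C57BL/6 mice gavaged every 4 days for 28 days. The labels also carry an ovariectomy and the word daily, which the study's methods do not mention. The comparison asks which genes depart first from vehicle and how far vehicle mice already differ from each other. The 5 mice at 0.01 µg/kg and the 5 at 0.1 µg/kg had the same strain, sex and schedule, and their values are given beside those at 0.03 µg/kg.

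TCDD (2,3,7,8-tetrachlorodibenzo-p-dioxin) is a persistent contaminant that binds the aryl hydrocarbon receptor (AhR), a transcription factor held in the cytoplasm by chaperones. The bound receptor enters the nucleus, pairs with ARNT and binds dioxin response elements, whose core is GCGTG. In liver its best known targets are cytochromes P450 of the CYP1 family, which oxidise aromatic compounds, and proteins that limit the receptor, such as the AhR repressor and TIPARP.

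Reads counted on genes ranged from 14619385 to 20624724 in vehicle mice (median 17045747) and from 12583247 to 23943553 at 0.03 µg/kg (median 13590900). The 10 most abundant genes took 20.6 to 21.6% of the reads in vehicle and 20.2 to 21.7% at 0.03 µg/kg. Xist had at least 22250 reads in each of the 10 mice and the Y-linked genes Ddx3y, Kdm5d, Uty and Eif2s3y had 0, as the labelled sex requires. Levels are given in CPM, the reads of a gene scaled to a common library size, and the expression of hepatocyte markers summed to 104900 to 135400 CPM in vehicle and 115100 to 133500 CPM at 0.03 µg/kg. In whole liver, fewer cells of a type and less RNA per cell cannot be told apart.

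Few genes passed the adjusted threshold against vehicle at this dose. Cyp1a2 rose 2.15-fold and Mast3 fell by 1.19 on the log2 scale, and the adjusted p-values of the other called genes lay just under the threshold. Differentially expressed genes (DEGs) had to differ 2-fold or more and have an edgeR quasi-likelihood p below 0.05 after adjustment. Of these, 3 were higher, Cyp1a2, Stmn1 and Gm11223, which is 0.0172% of the 17464 genes tested. Another 2 were lower, Mast3 and Pde6g, which is 0.0115%. At any fold change, 6 genes were higher (0.0344%), with Camkk2, Nsd2 and Psip1 added, and 4 were lower (0.0229%), with Timm17b and Naa80 added. All 5 dosed mice lay above or below every vehicle mouse for 9 of these 10 genes, the exception being Gm11223. Genes picked by a small p tend to show such a separation. Across all tested genes such a separation occurred upwards for 253 genes (1.45%) and downwards for 234 (1.34%). An unadjusted p under 0.05 was found for 1003 higher genes (5.74%) and 1039 lower genes (5.95%), and the median log2 fold change of all genes was 0.01. Without any difference, a share of 0.05 would be due in both directions together, so the 2042 genes found exceed it. The source of this excess was not tested. Leaving out a single mouse gave between 2 and 14 called genes. Cyp1a2 and Mast3 were called each time, and without both mice 3 and 4 at 0.03 µg/kg Cyp1a2 was the only call.

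**Figure D1:**
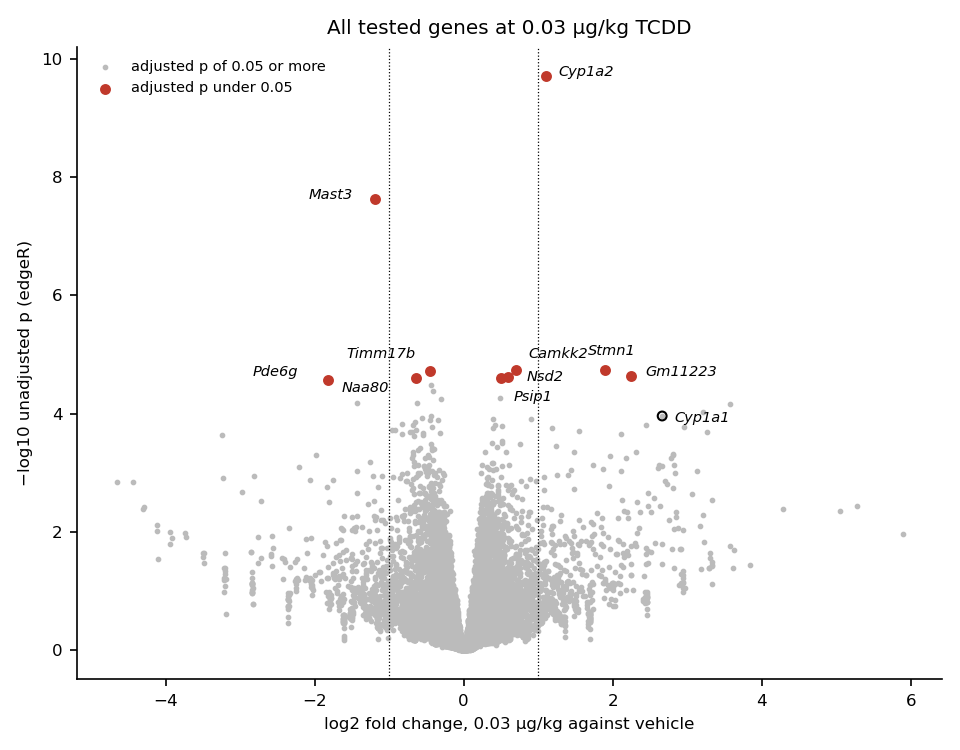
The log2 fold change of every tested gene at 0.03 µg/kg against vehicle (x axis) is plotted against its unadjusted p on a −log10 scale (y axis), with the 10 genes of adjusted p under 0.05 in red and dotted lines at a fold change of 2. Cyp1a2 and Mast3 stand above all other genes, and the other 8 called genes and the circled Cyp1a1 lie close to the uncalled ones.

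Cyp1a2, a monooxygenase of aromatic amines and caffeine that hepatocytes express constitutively, had the smallest p. Its level was 1040, 942, 1094, 1221 and 1228 CPM in vehicle mice 1 to 5 and 2499, 2236, 2246, 2242 and 2666 CPM in the dosed mice. The lowest dosed mouse was well above the highest vehicle mouse. The mean went from 1105 ± 122 CPM to 2378 ± 196 CPM (SD, n = 5 mice per group), a fold change of 2.15 with a 95% interval of 1.79 to 2.59 and an adjusted p of 3.37e-06. The call held in all 22 alternative fits, with log2 fold changes between 1.05 and 1.18. At 0.01 µg/kg the level lay between 989 and 1952 CPM, which overlaps vehicle, and at 0.1 µg/kg between 3501 and 4601 CPM, above every mouse at 0.03 µg/kg.

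Cyp1a1, which oxidises polycyclic aromatic hydrocarbons and is scarcely expressed in unexposed liver, had the larger fold change but a much wider spread. Vehicle mice 1 to 5 had 2.90, 1.33, 5.49, 16.6 and 11.1 CPM, and the dosed mice had 71.8, 56.7, 49.2, 25.2 and 36.4 CPM. Every dosed mouse was above every vehicle mouse, while the vehicle mice differed widely among themselves. The log2 fold change was 2.66 ± 0.62 (SE), and the adjusted p of 0.0828 missed the threshold. With DESeq2's Wald test the adjusted p was 0.0292, and with adjustment over all 8 doses it was 0.00429. At 0.01 µg/kg 1 mouse had 69.7 CPM and the other 4 between 1.18 and 4.54 CPM, and at 0.1 µg/kg the mice lay between 612 and 1325 CPM. Per kilobase of exon, Cyp1a2 was the more abundant gene in both groups, at 549 RPKM against 2.69 RPKM for Cyp1a1 in vehicle and 1181 against 17.2 RPKM at 0.03 µg/kg.

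Both genes lie on chromosome 9 of the GRCm38 build and point away from each other, Cyp1a2 at chr9:57676937-57683703 on the minus strand and Cyp1a1 at chr9:57687928-57703824 on the plus strand. Their RefSeq promoters (GRCm38.p6, 250 bases before to 50 after the start, 5′ to 3′ on the gene's strand) are shown with those of Mast3, the other gene called in nearly all fits, and Camkk2, the called gene with the most matches. Capitals mark the letters GCGTG or their reverse complement CACGC. The windows are chr9:57697363-57697662 (plus strand) for Cyp1a1, chr9:57683606-57683905 (minus) for Cyp1a2, chr8:70792384-70792683 (minus) for Mast3 and chr5:122779361-122779660 (minus) for Camkk2.
Cyp1a1: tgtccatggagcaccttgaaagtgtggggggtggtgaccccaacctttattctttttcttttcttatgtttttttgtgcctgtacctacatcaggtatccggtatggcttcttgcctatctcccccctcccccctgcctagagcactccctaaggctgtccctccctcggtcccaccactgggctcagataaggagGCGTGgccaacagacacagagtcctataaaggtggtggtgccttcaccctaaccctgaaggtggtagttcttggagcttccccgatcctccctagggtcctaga
Cyp1a2: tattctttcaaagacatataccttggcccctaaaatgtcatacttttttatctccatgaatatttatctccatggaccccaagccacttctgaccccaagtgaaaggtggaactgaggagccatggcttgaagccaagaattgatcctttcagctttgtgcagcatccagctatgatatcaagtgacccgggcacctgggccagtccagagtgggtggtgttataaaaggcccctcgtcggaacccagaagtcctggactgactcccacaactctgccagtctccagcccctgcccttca
Mast3: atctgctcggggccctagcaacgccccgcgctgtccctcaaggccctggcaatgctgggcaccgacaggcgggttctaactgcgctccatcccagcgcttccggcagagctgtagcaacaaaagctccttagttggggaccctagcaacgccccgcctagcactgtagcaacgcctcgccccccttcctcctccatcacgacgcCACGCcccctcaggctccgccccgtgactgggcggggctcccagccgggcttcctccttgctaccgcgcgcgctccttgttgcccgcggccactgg
Camkk2: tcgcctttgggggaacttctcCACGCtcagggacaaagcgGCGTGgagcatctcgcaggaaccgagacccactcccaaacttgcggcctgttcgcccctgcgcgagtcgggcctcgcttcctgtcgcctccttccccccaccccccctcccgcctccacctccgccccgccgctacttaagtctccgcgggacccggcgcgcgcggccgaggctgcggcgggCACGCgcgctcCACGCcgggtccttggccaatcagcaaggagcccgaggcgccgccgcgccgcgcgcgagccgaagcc
Cyp1a1 held 1 match, 54 bases before the start, Cyp1a2 held 0, Mast3 held 1 at 46 bases before the start, and Camkk2 held 4. Over all 32851 promoters of the same length in the table, 32.4% had at least 1 match on either strand and 11.1% had 2 or more. Promoters were found for 5 of the 10 called genes, and Timm17b and Naa80 had no match. The RefSeq starts of Mast3 and Cyp1a1 lie inside the longer genes given by GENCODE. A match is a description of the letters and says nothing of binding.

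The machinery of the receptor showed no call. Of the 9 listed pathway genes 8 were tested, none had an unadjusted p under 0.05, and their log2 fold changes ran from -0.28 to 0.33 with a median of -0.07. Ahr itself was at 73.6 ± 14.7 CPM in vehicle and 83.0 ± 16.2 CPM at 0.03 µg/kg (SD, n = 5), and Arnt, its partner, at 58.7 ± 6.7 and 53.1 ± 8.0 CPM. Tiparp, which ADP-ribosylates and restrains the receptor, was at 13.7 ± 2.4 and 12.2 ± 1.6 CPM. Ahrr, the AhR repressor, had at most 0.303 CPM in any of the 10 mice.

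Of 19 AhR target enzymes, Cyp1a2 alone passed the adjusted threshold, and 13 of the 19 had log2 fold changes below 0 (median -0.08). Unadjusted p under 0.05 was reached upwards by Cyp1a1, Cyp1a2 and Ugt1a9, a glucuronosyltransferase, and downwards by the glutathione transferases Gsta2 and Gstm1. Over all genes 5.74% reached it upwards and 5.95% downwards. Ugt1a9 was at 84.5 ± 15.5 CPM in vehicle and 112 ± 20 CPM at 0.03 µg/kg (SD, n = 5), with overlapping groups and an adjusted p of 0.413. For Gstm1 the means were 1006 ± 195 and 761 ± 130 CPM (adjusted p = 0.26), and for Gsta2 33.5 ± 11.3 and 19.2 ± 7.0 CPM (adjusted p = 0.34). Nqo1, a quinone reductase, was at 17.0 ± 3.7 and 16.6 ± 3.2 CPM, and Cyp1b1 at 1.41 ± 0.98 and 0.62 ± 0.34 CPM. Cyp2a5, the coumarin hydroxylase, lay at 1358, 1318 and 1142 CPM in dosed mice 1, 2 and 5 but at 443 and 634 CPM in mice 3 and 4, against 1233 to 1603 CPM in vehicle.

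Among 17 AhR targets that are not enzymes of this battery, 13 had log2 fold changes above 0 (median 0.14) and none was called. Htatip2, an oxidoreductase-like tumour suppressor, came nearest, at 45.8 ± 5.5 CPM in vehicle and 65.2 ± 12.2 CPM at 0.03 µg/kg (log2 fold change 0.51, adjusted p = 0.105). Slc46a3, a lysosomal transporter, was at 68.3 ± 13.9 and 95.2 ± 20.8 CPM (log2 fold change 0.48, adjusted p = 0.281). In both, the lowest dosed mouse was below the highest vehicle mouse.

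Mast3, a microtubule-associated serine/threonine kinase at chr8:70778117-70805054, was the gene that fell with the smallest p. Vehicle mice 1 to 5 had 48.9, 50.05, 51.8, 51.5 and 43.3 CPM, and dosed mice had 23.9, 23.3, 18.7, 17.0 and 24.5 CPM. The groups were far apart, and neither was wide. The log2 fold change was -1.19 ± 0.17 (SE), with an adjusted p of 0.000202, and it stayed called in 21 of 22 alternative fits. Its order across doses was not that of the dose. It was at 19.8 to 32.1 CPM at 0.01 µg/kg and 35.03 to 41.7 CPM at 0.1 µg/kg, so that the mice at 0.03 µg/kg were lower than all those at 0.1 µg/kg (adjusted p of that difference = 0.157).

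**Figure D2:**
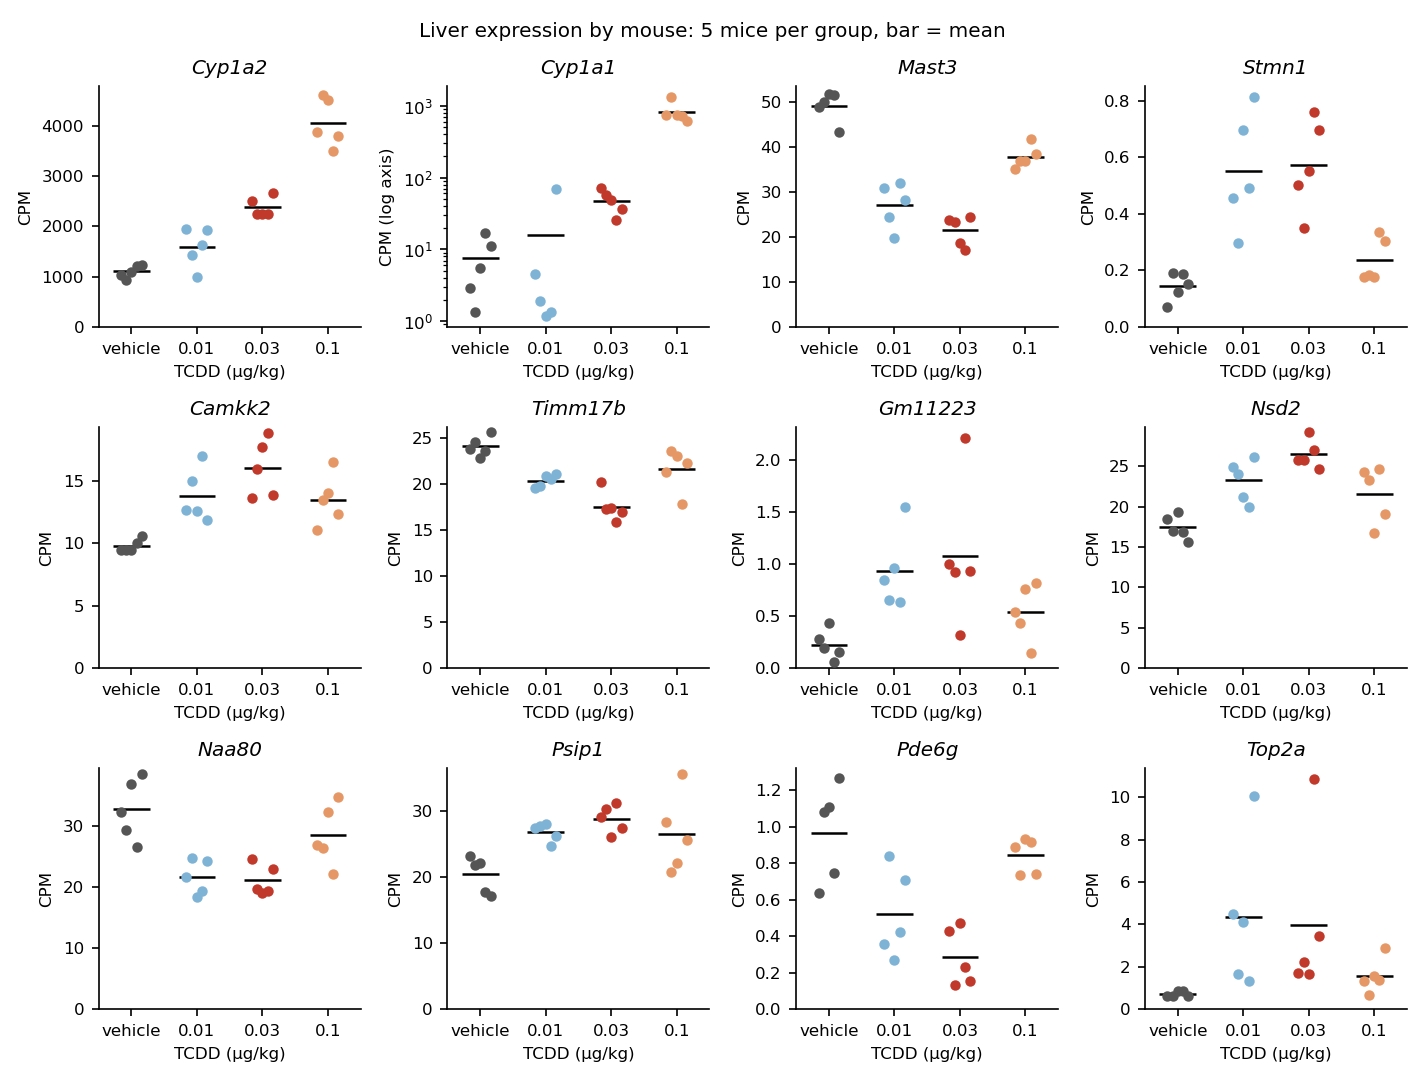
CPM (y axis, from 0, or on a log axis for Cyp1a1) of the 10 called genes, Cyp1a1 and Top2a is shown for each mouse (points) with the group mean (bar) for vehicle, 0.01, 0.03 and 0.1 µg/kg (x axis). Cyp1a2 steps up with dose. In other called genes, among them Mast3, Stmn1, Naa80 and Psip1, the mice at 0.01 µg/kg overlap those at 0.03 µg/kg.

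Camkk2, Nsd2 and Psip1 rose by less than 2-fold. Camkk2, a calcium/calmodulin-dependent kinase that activates AMPK, was at 9.43 to 10.6 CPM in vehicle and 13.6 to 18.9 CPM at 0.03 µg/kg (log2 fold change 0.71 ± 0.15, SE). Nsd2, a histone H3 lysine methyltransferase, went from 17.5 ± 1.5 to 26.5 ± 1.7 CPM (log2 fold change 0.60). Psip1, a chromatin reader also called LEDGF, went from 20.4 ± 2.8 to 28.8 ± 2.1 CPM (log2 fold change 0.50). Timm17b and Naa80 fell. Timm17b, part of the import channel of the mitochondrial inner membrane, was at 22.8 to 25.7 CPM in vehicle and 15.9 to 20.2 CPM at 0.03 µg/kg (log2 fold change -0.46). Naa80, the acetyltransferase of actin, was at 26.5 to 38.5 and 19.03 to 24.6 CPM (log2 fold change -0.63). Each of these 5 genes had an adjusted p of 0.0467. Naa80 shares 1920 exonic bases with Hyal1 on the same strand, so that the reads it keeps depend on how shared reads were dropped in counting. Psip1 shares 483 exonic bases with Snapc3, Timm17b 117 with Gm10491 and Nsd2 60 with Nelfa. The effect of these overlaps on the counts was not tested.

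Stmn1, Gm11223 and Pde6g were called on a handful of reads. Stmn1, a microtubule-destabilising protein abundant in dividing cells, had 1 to 3 reads in each vehicle mouse and 7 to 10 in each dosed mouse (log2 fold change 1.89 ± 0.39, SE). Gm11223, a processed pseudogene, had 1 to 7 and 4 to 29 reads (2.25 ± 0.47). Pde6g, a subunit of the photoreceptor phosphodiesterase, had 9 to 25 and 2 to 6 reads (-1.82 ± 0.39). Their adjusted p was 0.0467 each, and of the 22 alternative fits Stmn1 was called in 8, Gm11223 in 7 and Pde6g in 6.

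The next 20 genes by p, with adjusted p from 0.0512 to 0.0828, did not pass. Of these, 8 had higher and 12 lower means at 0.03 µg/kg, and in 16 the groups did not overlap, which genes ranked by p tend to show, beside 1.45% upwards and 1.34% downwards of all genes. Esco2, a cohesin acetyltransferase, was at 0.167 ± 0.159 CPM in vehicle and 2.01 ± 2.07 CPM at 0.03 µg/kg, and Smc2, a condensin subunit, at 3.40 ± 0.39 and 6.39 ± 1.81 CPM. Also there were Aspm, a spindle protein, Rev3l, the catalytic subunit of DNA polymerase zeta, the RNA-binding gene Rbm45 and Shtn1, with log2 fold changes of 3.21, 0.48, 0.40 and 0.42. On the lower side was Apoa4, an apolipoprotein of fat transport, at 153 to 296 CPM in vehicle and 109 to 140 CPM at 0.03 µg/kg (log2 fold change -0.83). Gpi1, the glycolytic glucose-6-phosphate isomerase, had a log2 fold change of -0.35, Shpk, sedoheptulokinase, -0.41, Lamtor4, a lysosomal Ragulator subunit, -0.56 and Gps2, a corepressor subunit, -0.43. The others were the pseudogene Gm1840 (-0.44), the NAD(P)HX dehydratase Naxd (-0.30), Mapk1ip1 (-0.62), Eaf2 (-1.43), Cul9 (-0.45), Zmat1 (-0.66) and Zbed3 (-0.68).

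Several mitotic genes had their highest level in dosed mouse 4, and no gene of the cell cycle list was called. The summed level of the list was 293, 256, 169, 251 and 261 CPM in dosed mice 1 to 5 and 165 to 189 CPM in vehicle, so that over the whole list mouse 1 was highest. Of 16 listed genes, 9 had an unadjusted p under 0.05 upwards (Top2a, Mki67, Ccna2, Ccnb1, Ccnb2, Cdk1, Mcm3, Mcm6 and Cdc20), beside 5.74% of all genes. Pcna had such a p downwards, beside 5.95% of all genes, and none of the 16 passed the adjusted threshold. The median log2 fold change was 0.85 beside 0.01 for all genes. Top2a, the topoisomerase of dividing cells, was at 0.637, 0.636, 0.863, 0.866 and 0.606 CPM in vehicle mice and 1.72, 2.24, 1.65, 10.9 and 3.48 CPM in dosed mice. Mouse 4 was the highest of the dosed mice and mouse 5 the next. Mki67, the proliferation antigen Ki-67, showed the same order at the top, with 15.7 CPM in mouse 4, 4.56 CPM in mouse 5 and 1.26 to 2.99 CPM in the other dosed mice, against 0.986 to 1.98 CPM in vehicle. Ccna2, cyclin A2, was at 0.445 to 1.01 CPM in vehicle and 1.14 to 6.62 CPM at 0.03 µg/kg. The groups did not overlap, as for 1.45% of all genes upwards. Without mouse 4, 3 of the 16 genes had an unadjusted p under 0.05 upwards and the median was 0.76. The median against vehicle was 1.23 at 0.01 µg/kg and 0.11 at 0.1 µg/kg. These levels are low, at most 143 reads for Top2a in any of the 10 mice.

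Several clock genes separated mice 3 and 4 from the other dosed mice and from vehicle. Arntl (BMAL1), the activator of the clock, was at 0.431 to 1.36 CPM in vehicle and at 0.286, 1.98, 20.99, 5.55 and 1.39 CPM in dosed mice 1 to 5. Its partner Npas2 was at 4.48 CPM in mouse 3 and 0.456 CPM in mouse 4, with no more than 0.212 CPM in the other 8 mice. The repressor Per1 ran the other way, at 1.26 and 7.99 CPM in mice 3 and 4, 23.9 to 43.7 CPM in mice 1, 2 and 5, and 34.6 to 73.1 CPM in vehicle. Ciart, another repressor, was at 0.236 and 3.27 CPM in mice 3 and 4 and 19.7 to 40.9 CPM in the other 8 mice. The deubiquitinase Usp2, a clock output, was at 1.73 and 12.2 CPM in these mice and 44.01 to 108 CPM elsewhere. Over the 20 listed genes the median SD of log2 CPM was 0.35 in vehicle and 1.02 at 0.03 µg/kg, beside 0.26 and 0.30 for all genes. None of the 20 was called, and Arntl, Clock and Npas2 upwards and Cry2 downwards had an unadjusted p under 0.05. Over all genes 5.74% had such a p upwards and 5.95% downwards. Without mouse 3 no gene had such a p upwards, and without mice 3 and 4 that number was 0 of 20. Dosed mouse 3 was also the one with the lowest Dbp, a clock output, at 26.5 CPM against 145 to 184 CPM in vehicle.

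**Figure D3:**
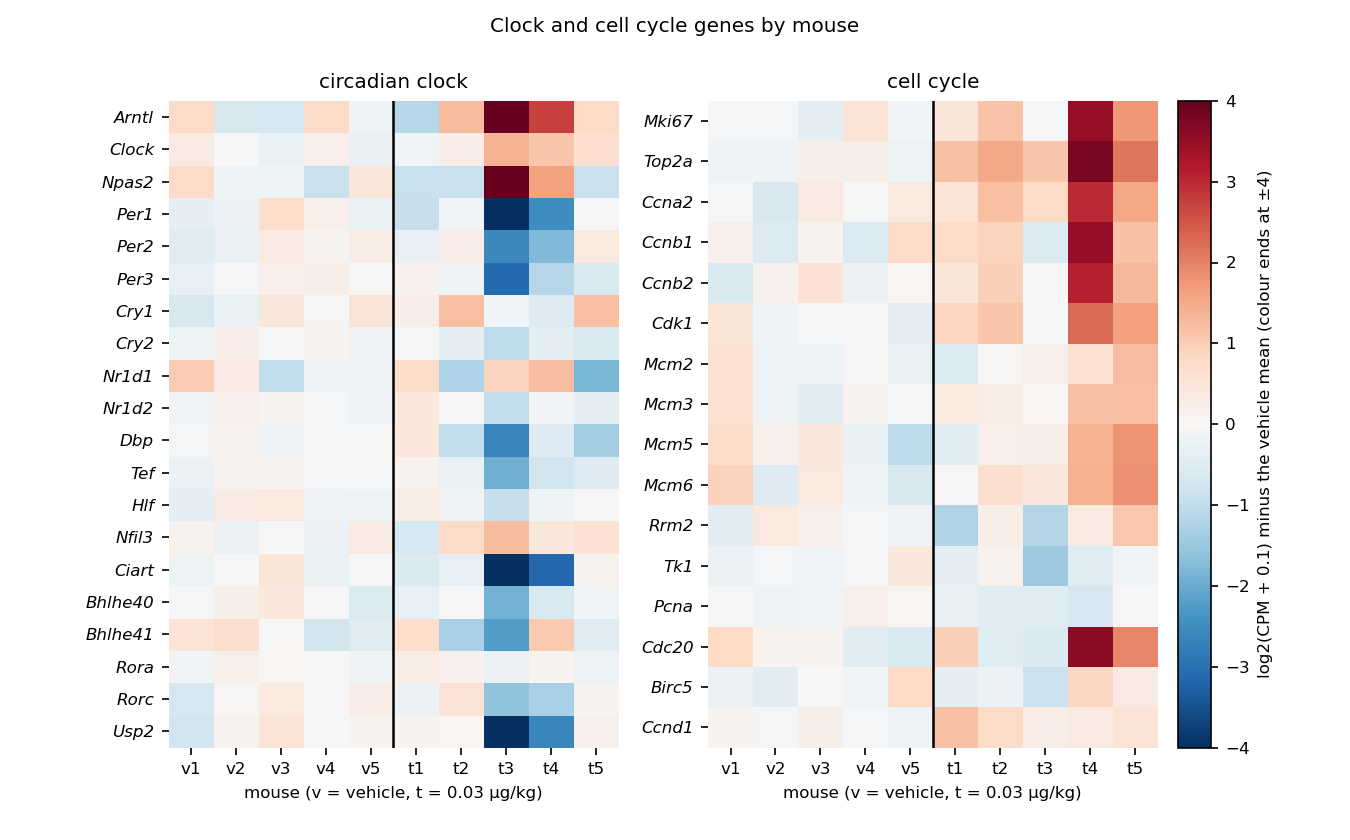
Colour shows log2(CPM + 0.1) minus the vehicle mean for the 20 clock genes (left) and 16 cell cycle genes (right) in vehicle mice v1 to v5 and dosed mice t1 to t5 (x axis). Mice t3 and t4 stand apart in the clock genes, and mouse t4, then t5, in the mitotic genes.

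A few other genes with a wide range at 0.03 µg/kg were looked at mouse by mouse, and were chosen after their values were seen. Alas1, the rate-limiting enzyme of heme synthesis, was at 272 and 88.4 CPM in these mice, at 823 to 1311 CPM in mice 1, 2 and 5, and at 652 to 1323 CPM in vehicle. Noct, a rhythmic phosphatase of NADPH, was at 6.92 and 10.9 CPM in mice 3 and 4, and at 42.0 to 151 CPM in the other 8. Thrsp, a lipogenic thyroid-hormone-responsive gene, was low in 3 dosed mice, with 110, 186 and 114 CPM in mice 1, 3 and 4 and 970 and 1315 CPM in mice 2 and 5, against 586 to 1238 CPM in vehicle.

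Genes of fat synthesis tended to lower means without a call. Of the 19 listed lipogenic genes 17 had log2 fold changes below 0 (median -0.39), 6 had an unadjusted p under 0.05 downwards (Acly, Acaca, Acacb, Fasn, Me1 and Dgat1) and 0 passed the adjusted threshold. Fasn, fatty acid synthase, was at 466 to 1574 CPM in vehicle, where mice 1 and 4 were highest, and at 194 to 684 CPM at 0.03 µg/kg (log2 fold change -0.86, adjusted p = 0.305). Acly, which makes the acetyl-CoA for it, was at 503 ± 253 and 324 ± 97 CPM, and Acacb, an acetyl-CoA carboxylase, at 177 ± 58 and 113 ± 60 CPM. Dgat1, which makes triglyceride, was at 21.3 ± 2.3 and 17.0 ± 2.4 CPM. Without vehicle mouse 4 the downward count of this list was 1 and without dosed mouse 1 it was 2, beside 5.95% of all genes. With an offset for GC content it was 4. Cholesterol synthesis had 17 of 19 genes below 0 (median -0.24). In 3, Pmvk, Fdps and Dhcr7, the unadjusted p was under 0.05 downwards, beside 5.95% of all genes. This count rested on single mice: it was 0 without dosed mouse 1 (median -0.09), 1 without vehicle mouse 2 or 4, 9 without dosed mouse 4 (median -0.44) and 11 without mice 3 and 4 (median -0.49). Genes of glucose metabolism summed to 5569 and 5205 CPM in dosed mice 3 and 4, against 7735 to 10350 CPM in the other 3 and 7701 to 10310 CPM in vehicle. Of the 17 genes 13 were below 0 (median -0.20, or -0.42 without dosed mouse 5). An unadjusted p under 0.05 downwards was found for 5, beside 5.95% of all genes. This count was 1 without mouse 3, mouse 4 or both (median -0.08 without both). It was 3 without vehicle mouse 2 or 4 or dosed mouse 5. In this list Pklr, liver pyruvate kinase, was at 315 ± 83 and 200 ± 44 CPM (adjusted p = 0.242), and gluconeogenic Pck1 was at 3010 ± 823 and 2221 ± 1183 CPM.

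Of 16 iron and heme genes 7 had an unadjusted p under 0.05, all downwards, and none was called (median log2 fold change -0.18). Hamp encodes hepcidin, the hormone that limits iron export, and Hamp2 is a related gene. Hamp was at 586, 841, 716, 675 and 878 CPM in vehicle and 513, 487, 710, 304 and 338 CPM at 0.03 µg/kg, and Hamp2 at 296 to 699 and 128 to 503 CPM. In both, dosed mouse 3 lay within the vehicle range, and for Hamp the other 4 dosed mice lay below it. Ftl1, ferritin light chain, was at 382 ± 74 and 284 ± 55 CPM and Urod, a heme synthesis enzyme, at 64.7 ± 3.1 and 56.3 ± 5.4 CPM. The downward count, beside 5.95% of all genes, was 4 without dosed mouse 4 or vehicle mouse 2, 2 without mice 3 and 4, and 3 with an offset for GC content. The list summed to 2647 CPM in mouse 4 and 3843 to 4359 CPM in the other dosed mice.

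Immune and stress lists gave few departures and no call. Of 18 interferon-stimulated genes 17 had log2 fold changes above 0 (median 0.24). The list summed to 305 and 319 CPM in dosed mice 3 and 4, 222 to 263 CPM in the other 3 and 193 to 252.5 CPM in vehicle, and without mice 3 and 4 the median was 0.12. Rsad2 was at 6.94 ± 1.93 and 12.5 ± 3.8 CPM and Ifit2 was at 4.15 to 7.46 and 7.72 to 10.4 CPM. Of 14 targets of the oxidative stress factor Nrf2, Gclc, Gclm and Osgin1 had an unadjusted p under 0.05 upwards, beside 5.74% of all genes. That count was 0 without dosed mouse 4 and 1 without dosed mouse 3, vehicle mouse 1 or vehicle mouse 5. Gclc, which makes glutathione precursor, was at 195 to 211 CPM in all vehicle mice and at 268, 237, 412, 349 and 198 CPM at 0.03 µg/kg. Osgin1 was at 64.6 to 82.2 CPM in vehicle and at 44.7 CPM in dosed mouse 5 but 107 to 163 CPM in the other dosed mice. In the acute phase list 3 of 20 genes had an unadjusted p under 0.05, all downwards, beside 5.95% of all genes. They were Orm3, an orosomucoid, at 10.3 to 15.4 and 2.72 to 7.23 CPM, and the metallothioneins Mt1 and Mt2. Without vehicle mouse 2 or dosed mouse 3 the count was 1. The lists for MHC class II, immediate early and heat shock genes, unfolded protein stress, fatty acid oxidation and housekeeping had 0 genes with an unadjusted p under 0.05.

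In the lists of transport and sex-dependent genes at most 1 gene went each way at an unadjusted p under 0.05. This is near the shares of all genes, 5.74% upwards and 5.95% downwards. Slc10a1, the bile salt uptake transporter, was at 845 to 1089 CPM in vehicle and 689 to 797 CPM at 0.03 µg/kg (adjusted p = 0.231). All dosed mice lay below every vehicle mouse, as for 1.34% of all genes. It was the 1 gene of 15 in the bile acid list with an unadjusted p under 0.05. Gstt1, a glutathione transferase, was the 1 of 11 in the list of constitutive androstane and pregnane receptor targets, at 306 to 375 and 235 to 298 CPM. Socs2, which damps growth hormone signalling, was at 17.7 ± 8.5 and 33.5 ± 5.3 CPM, and Cyp17a1, a steroid hydroxylase, at 337 ± 93 and 170 ± 88 CPM (adjusted p = 0.263 and 0.291). Of 12 tested major urinary protein genes Mup2 alone had an unadjusted p under 0.05.

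Marker sums of the other cell types overlapped between the groups. The 6 Kupffer cell markers all had log2 fold changes above 0 (median 0.35), with none at an unadjusted p under 0.05. Their median against vehicle was 1.04 at 0.01 µg/kg and 0.27 at 0.1 µg/kg. They summed to 132 to 206 CPM in vehicle and 174 to 261 CPM at 0.03 µg/kg. Sinusoidal endothelial markers summed to 152 to 198 and 121 to 193 CPM, stellate cell markers to 328 to 461 and 374 to 446 CPM, and cholangiocyte markers to 52.1 to 77.8 and 52.1 to 66.05 CPM. T and NK cell markers summed to no more than 4.43 CPM, B and plasma cell markers to no more than 6.62 CPM and neutrophil markers to no more than 1.18 CPM in any of the 10 mice. Erythroid markers ran from 68.9 to 86.0 CPM in vehicle and from 49.9 to 142 CPM at 0.03 µg/kg. Adipocyte markers ran from 8.90 to 17.1 and from 7.36 to 12.3 CPM and pancreatic acinar markers from 14.7 to 21.4 and from 11.9 to 20.7 CPM. Among the markers of all cell types, an unadjusted p under 0.05 was reached upwards by Ms4a1 and downwards by Mzb1 and Fabp4. Over all genes 5.74% reached it upwards and 5.95% downwards. Kupffer markers summed to 243 CPM in dosed mouse 4 and 261 CPM in mouse 3, the highest of the 10 mice, and the part of these cells in any result was not tested.

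The spread between vehicle mice set the scale of these differences. The SD of log2 CPM over the 5 vehicle mice had a median of 0.26 over the tested genes, and it narrowed with depth, from 0.53 for genes under 10 reads to 0.17 for genes from 100 to under 1000 reads and 0.15 from 1000 to under 10000. At 0.03 µg/kg the median was 0.30, and it was wider than in vehicle at each of these read levels. Of 10321 genes with a mean of at least 50 reads, 61.4% had the larger SD at 0.03 µg/kg, and an SD above 1 occurred for 20 genes in vehicle and 87 at 0.03 µg/kg. The biological coefficient of variation of each group alone was 0.153 and 0.204. The median library at 0.03 µg/kg was shallower, though dosed mouse 2 had the deepest of the 10 libraries. With all mice thinned to the smallest library the median SDs were 0.2609 in vehicle and 0.2875 at 0.03 µg/kg. Without mice 3 and 4 the median SD at 0.03 µg/kg was 0.23. The median SD tends to fall when fewer mice are used, so this value cannot be set against the medians over 5 mice. Pairs of vehicle mice correlated at r = 0.978 to 0.989 across genes and pairs of dosed mice at 0.962 to 0.987, with 0.958 to 0.986 between the groups, genes not being independent replicates.

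The 10 most variable genes of at least 100 vehicle reads included Slco1a1, an organic anion transporter, at 7.43 to 188 CPM in vehicle, Egr1, an immediate early factor, at 3.899 to 77.5 CPM, the sulfotransferases Sult1e1 and Sult2a3, Cyp3a41a, Cyp3a16, Mup11, Angptl8, Pnpla3 and Cyp1a1 itself. Of these Sult2a3 was at 2.16 to 27.5 CPM in vehicle and 1.14 to 4.29 CPM at 0.03 µg/kg (log2 fold change -2.05, adjusted p = 0.293). Slco1a1 was at 55.1 to 271 CPM at 0.03 µg/kg (adjusted p = 0.488). Among the 10 steadiest, Dhrs7 held between 54.8 and 55.5 CPM in vehicle but ran from 41.8 to 57.5 CPM at 0.03 µg/kg, and the ribosomal gene Rpl8 held between 178 and 185 CPM and ran from 158 to 192 CPM. Genes picked for a small spread in vehicle are bound to look wider elsewhere. Of the 10 most abundant vehicle genes, among them Alb, Apoe, Cyp2e1, Selenop, C3 and mitochondrial transcripts, none had an unadjusted p under 0.05, and Alb took 10.6% of reads in vehicle and 10.9% at 0.03 µg/kg.

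The log2 fold change varied with the base composition of the genes. Over 10253 genes of at least 50 mean reads, the log2 fold change at 0.03 µg/kg had a Spearman correlation of -0.40 with GC content and 0.29 with exonic length, given as a description across genes that share the 10 libraries. From the lowest to the highest of 5 equal bins of GC content the median log2 fold change was 0.11, 0.07, 0.02, -0.05 and -0.11. In the lowest bin 309 of 2051 genes had an unadjusted p under 0.05 upwards and 38 downwards. In the highest bin the counts were 20 upwards and 348 downwards of 2050 genes. The shares of all genes given beside the lists do not allow for this. The correlation of each dosed mouse's deviation from the vehicle mean with GC ran from -0.42 to -0.31 in mice 1, 2, 4 and 5 and was -0.02 in mouse 3, while single vehicle mice ran from -0.22 to 0.24. At 0.01 and 0.1 µg/kg the correlation of the log2 fold change with GC was -0.12 and -0.21. With an offset for GC content 5 genes were called, Cyp1a2, Mast3, Stmn1, Camkk2 and Zmat1. The other 6 genes lost their call, with log2 fold changes and adjusted p of 0.51 and 0.143 for Nsd2, 0.40 and 0.117 for Psip1, 2.33 and 0.0502 for Gm11223, -1.76 and 0.0732 for Pde6g, -0.43 and 0.0732 for Timm17b and -0.54 and 0.117 for Naa80. With this offset the cell cycle list kept 9 genes with an unadjusted p under 0.05 upwards and the cholesterol list 3 downwards. The downward count fell to 4 for lipogenic genes and to 3 for iron and heme genes, and the upward clock count to 2. The part of base composition in these differences beyond this offset was not tested.

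**Figure D4:**
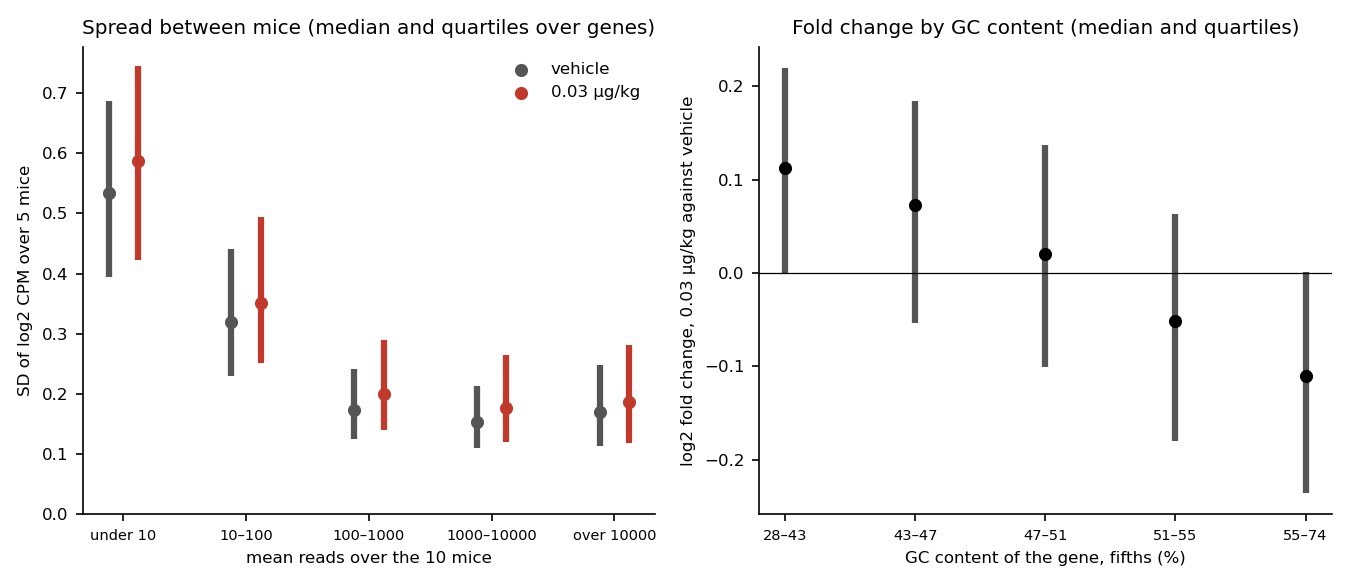
Left, the SD of log2 CPM over 5 mice (y axis; point, median over genes; bar, quartiles) by mean reads over the 10 mice (x axis), in vehicle (grey) and at 0.03 µg/kg (red). Right, the log2 fold change at 0.03 µg/kg (y axis; point, median; bar, quartiles) in 5 equal bins of GC content in percent (x axis), which runs from a median of 0.11 down to -0.11.

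Against the neighbouring doses the mice at 0.03 µg/kg differed in few genes. Between 0.03 and 0.01 µg/kg 0 of 17464 genes were called by edgeR (0%), the smallest adjusted p being 0.489, and 874 had an unadjusted p under 0.05. For Cyp1a2 the log2 difference was 0.58 ± 0.13 (SE, adjusted p = 0.489), with a 95% interval of 0.32 to 0.85. Between 0.1 and 0.03 µg/kg 2 genes were called (0.0115%), Cyp1a1 and Cyp1a2, both higher at 0.1 µg/kg, and 980 had an unadjusted p under 0.05. The log2 differences were 4.11 ± 0.64 for Cyp1a1 (adjusted p = 0.0018) and 0.77 ± 0.13 for Cyp1a2 (adjusted p = 0.00574). For the called genes other than Cyp1a2 the adjusted p of the difference between 0.03 and 0.01 µg/kg was at least 0.932. The mean of Mast3 was 27.1 CPM at 0.01 µg/kg, that of Camkk2 13.8 CPM, that of Timm17b 20.4 CPM, that of Naa80 21.7 CPM and that of Psip1 26.8 CPM. The comparisons of the 2 doses with vehicle share the 5 vehicle mice.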

How the data were processed

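RNA from whole liver of 45 mice was sequenced, and 10 of them, 5 vehicle and 5 at 0.03 µg/kg TCDD, were grouped by the dose in their labels. The deposited values are raw counts per Ensembl gene, made by the authors with TopHat 1.4.1 against GRCm38, SAMtools 0.1.19 and HTSeq 0.6.1 after FastQC 0.11.2. Reads that map to several places or to several genes were left out by the authors, so overlapping and near-identical genes are undercounted. The strand setting and the sequencing pool of each mouse are not given in the sources used here, so no comparison within pools was made. Nothing in the labels ties replicates to litters. In the main fit the p-values set a difference between groups against the spread between mice, estimated over all 45 mice.

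Genes with more than 4 reads in any of the 45 mice (17464) were tested with edgeR 4.0.16 (R 4.3.3), using TMM, 1 coefficient per group over all 45 mice, glmQLFit and glmQLFTest, and Benjamini-Hochberg adjustment within a comparison. A gene was a DEG when it differed 2-fold or more with adjusted p below 0.05. The SE is the absolute log2 fold change over the root of F. Levels are CPM computed from the TMM-scaled counts, and SDs of log2 CPM used a prior count of 2. DESeq2 1.42.0, other scalings, filters and sample sets, and each mouse left out, were tried as alternatives. Offsets for GC content and exonic length and the fit without dosed mice 3 and 4 were added after seeing the data. Positions are from GENCODE M21 and promoters from RefSeq.

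Named genes were those called, the next 20 by p, listed genes, the 10 most and least variable and the 10 most abundant vehicle genes. The comparison, genes and lists were chosen with earlier results of these data known.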

Additional observations from a re-analysis of the deposited data

Results flagged for a closer look

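A single mouse stood apart from the other 4 of its group (gap over range above 0.71, Dixon's 95% value for 5) in 15 of 182 groups of values. Several of these values come from the same mouse, and some genes were chosen for a small p or a wide range. The count was therefore not set against chance. Dosed mouse 4 had the high cell cycle values, with Aspm at 3.58 CPM, Top2a at 10.9 CPM, Mki67 at 15.7 CPM and Ccna2 at 6.62 CPM. Dosed mouse 3 had Arntl at 20.99 CPM, Npas2 at 4.48 CPM, Gstm1 at 983 CPM and adipocyte markers at 12.3 CPM. Dosed mouse 2 had the deepest library, with 23943553 reads on genes. In vehicle, mouse 1 had Egr1 at 77.5 CPM, Slc46a3 at 43.7 CPM and adipocyte markers at 17.1 CPM, mouse 2 had Rsad2 at 10.3 CPM, mouse 3 had Alas1 at 1323 CPM and mouse 4 had Mki67 at 1.98 CPM.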

How the results depend on the processing

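Cyp1a2 was called in all 22 alternatives and Mast3 in 21, the exception being the fit without dosed mice 3 and 4 (adjusted p = 0.0663, edgeR), while the other 8 genes were called in 5 to 8. DEGs numbered 5 (3 higher, 2 lower). They numbered 2 (1 higher, 1 lower) with library size only, with no filter or with the 20 mice up to 0.1 µg/kg, and 3 (1 higher, 2 lower) with the 10 mice. DESeq2 gave 26 (23 higher, 3 lower), adjustment over all 8 doses 64 (44 higher, 20 lower), a fold change of at least 1.5 gave 8 (5 higher, 3 lower), the GC offset 3 (2 higher, 1 lower), the length offset 4 (3 higher, 1 lower), and the fit without mice 3 and 4 gave 1 (1 higher, 0 lower). At any fold change the 10 calls (6 higher, 4 lower) became 2 (1 higher, 1 lower) with library size only, no filter or the 20 mice, 3 (1 higher, 2 lower) with the 10 mice, 13 (6 higher, 7 lower) with filterByExpr, 67 (38 higher, 29 lower) with DESeq2, 237 (112 higher, 125 lower) over all doses, 5 (3 higher, 2 lower) with the GC offset, 10 (5 higher, 5 lower) with the length offset and 1 (1 higher, 0 lower) without mice 3 and 4. Leaving out 1 mouse gave 2 to 8 DEGs (1 to 4 higher, 1 to 4 lower) and 2 to 14 calls (1 to 5 higher, 1 to 9 lower). The 14 came without dosed mouse 1, and leaving out any other of the 10 mice gave 2 to 4. The cause was not tested.

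The median SD of 0.26 in vehicle was 0.2629 with a prior count of 0.5, 0.1786 at 50 or more mean reads and 0.2359 to 0.2513 with 1 mouse left out. At 0.03 µg/kg it was 0.2064 at 50 or more reads, 0.274 to 0.3025 with 1 mouse left out and 0.2345 without mice 3 and 4. Medians over fewer mice tend to be lower, so those with mice left out are not comparable with the medians over all mice of a group. The log2 fold change changed sign for Nqo1 without vehicle mouse 4 (0.080), without dosed mouse 5 (0.055) and with the length offset (0.027), the range with 1 mouse left out being -0.13 to 0.080, for Egr1 without vehicle mouse 1 (1.38, the range being -0.61 to 1.38), and without dosed mice 3 and 4 for Npas2 (-4.14), Usp2 (0.057), Pck1 (0.028) and Alas1 (0.26). Depth limits Stmn1, Gm11223 and Pde6g, with at most 29 reads in a mouse. No paired analysis was possible because replicate numbers follow the order of the samples and pair no mice.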
